A study of Mus musculus with 32 samples.

Results

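Aminoacyl-tRNA synthetases, the enzymes that join each amino acid to its transfer RNA, were followed through a set of mouse lymphomas as 35 listed genes, of which 20 encode the cytosolic enzymes and 15 the mitochondrial ones (symbols ending in 2). The members were chosen by symbol: a gene was measured where a probe set of the array was annotated to it alone, and the probe set with the highest mean was used. Of the 35 genes, 33 had such a probe set (18 cytosolic, 15 mitochondrial), out of 18194 genes on the array, and 32 of them (18 cytosolic, 14 mitochondrial) were among the 11228 genes bright enough to be tested. Dars and Mars, which encode the aspartate and methionine enzymes of the cytosol, had no probe set under those symbols. Mars2, the mitochondrial methionine enzyme, had a mean of 5.66, below the limit of 5.78 set by the median probe set. A probe set annotated to Mars1, the current symbol of Mars, was not counted, and its level ran from 8.96 in tumour 30 to 10.75 in tumour 17.

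The samples were 32 lymphomas from Eµ-myc mice, in which an immunoglobulin heavy chain enhancer drives Myc in the B cell lineage, so that all tumours share the transgene and there are no control samples. Total RNA came from frozen tumour tissue or from dissociated cells, with no label tying either source to a tumour, or saying whether any tumours shared a mouse. All 32 arrays form 1 group, and relations across tumours take the place of group comparisons. The p-values measure the spread between these tumours, and the number of arrays limits the precision.

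The median log2 value of an array was 5.72 to 5.80, array-to-array correlations were 0.938 to 0.993, and no arrays were identical. The mean of 10 shared B cell genes ran from 9.78 to 11.21. Among them Cd79a ran from 9.37 to 11.63. Pax5, which holds B cell identity, ran from 7.16 in tumour 2 to 9.04, and Ebf1 from 6.24 in tumour 24 to 10.66. The tumours also held other cells. The mean of 6 tested T cell genes ran from 5.84 to 9.90 and that of 12 tested myeloid genes from 8.49 to 11.78. Bpifa2, a salivary gland gene, was at 10 or above in 11 tumours. Tumours 2 and 24 stood apart by the highest T cell levels, and tumours 25 and 30 by the highest stroma levels. In such bulk samples, fewer tumour cells and less RNA per tumour cell cannot be told apart.

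Each synthetase recognises 1 amino acid and the transfer RNAs that belong to it, and the charged transfer RNA is what the ribosome reads. Mammalian cells keep separate enzymes for the cytosol and for mitochondria, both encoded in the nucleus, while a few enzymes such as Gars and Kars serve both places. Several cytosolic enzymes sit together in a multisynthetase complex held by the scaffold proteins Aimp1, Aimp2 and Eef1e1. Myc is known to raise genes of growth and protein synthesis, and Atf4, the transcription factor of amino acid shortage, is known to act on cytosolic synthetase genes through C/EBP-ATF response elements.

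Because the relations with Myc and with the Atf4 response differed between genes, the promoters were read first. RefSeq promoters (GRCm38.p6, from 250 bases before to 50 after a start site) were found for 25 of the 35 genes, 12 cytosolic and 13 mitochondrial. The C/EBP-ATF response element, searched as TGATGNAA on both strands, occurred in the promoters of 5 of 12 cytosolic genes (Aars, Gars, Iars, Tars, Yars), of 0 of 13 mitochondrial genes and of 3.97% of all 32851 promoters in the table. The E-box CACGTG, which reads the same on both strands and is bound by Myc and related factors, occurred in 4 cytosolic promoters (Aars, Farsb, Iars, Tars), in 1 mitochondrial promoter (Ears2) and in 7.15% of all. The Nrf1 motif (GCGCA and GCGC with 1 base between them, both strands) occurred in 3 cytosolic promoters (Farsb, Kars, Tars), 2 mitochondrial ones (Iars2, Mars2) and 4.6% of all, and the interferon motif (GAAA repeated after a gap of 2 bases) in that of Qars and in 3.44% of all. None of these matches overlapped another. The matches describe letters in these windows, and binding was not measured.

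The response element matches of Yars, Gars, Iars and Tars are shown on the strand of the gene, each in a window of 28 bases with the match in capitals. They are given because these genes recur in the comparisons with Atf4. The windows are chr4:129189896-129189923 for Yars (plus strand), chr6:55037961-55037988 for Gars (plus), chr13:49682127-49682154 for Iars (plus) and chr15:11399656-11399683 for Tars (minus).
Yars: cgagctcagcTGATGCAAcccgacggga
Gars: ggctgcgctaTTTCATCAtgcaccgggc
Iars: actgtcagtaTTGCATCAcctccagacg
Tars: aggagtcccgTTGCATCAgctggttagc

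The 250 bases before the start are printed for 2 genes. Aars2 is the mitochondrial alanine enzyme, whose relation with Myc differed from that of Aars, and Tars carries a response element but had no slope on the Atf4 score. The Aars2 region (chr17:45506582-45506831, plus strand) held none of the 4 motifs. In the Tars region (chr15:11399659-11399908, minus strand) the capitals mark an Nrf1 match and the response element.
Aars2: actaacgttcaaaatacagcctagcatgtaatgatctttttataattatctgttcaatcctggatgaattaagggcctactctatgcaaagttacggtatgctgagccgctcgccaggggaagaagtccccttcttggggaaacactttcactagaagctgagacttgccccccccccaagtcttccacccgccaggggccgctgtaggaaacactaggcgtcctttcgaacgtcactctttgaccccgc
Tars: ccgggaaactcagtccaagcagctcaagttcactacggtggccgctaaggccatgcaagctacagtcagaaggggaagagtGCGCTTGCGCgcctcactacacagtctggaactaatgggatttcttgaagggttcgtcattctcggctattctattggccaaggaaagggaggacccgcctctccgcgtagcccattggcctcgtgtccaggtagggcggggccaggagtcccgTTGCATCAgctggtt

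By median SD the cytosolic synthetases varied less than all tested genes, and the mitochondrial ones about as much. The SD over the 32 tumours ran from 0.14 for Qars, the glutamine enzyme, to 0.41 for Yars2, the mitochondrial tyrosine enzyme. The median SD was 0.23 for the cytosolic genes and 0.28 for the mitochondrial genes, beside 0.28 for all tested genes. Yars2 ran from 7.64 in tumour 30 through a median of 8.73 to 9.37 in tumour 17, a 3.32-fold range, and Yars, its cytosolic counterpart, from 7.53 in tumour 30 through 8.75 to 9.28 in tumour 2, a 3.37-fold range. Qars spanned 10.42 to 11, a 1.5-fold range. Vars and Vars2, the valine enzymes, both had an SD of 0.17. A second, dimmer Vars2 probe set had an SD of 0.52 and correlated with the chosen one at 0.23.

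Single tumours stood away from the others for 9 of the 32 tested genes, with an empty stretch of at least 25% of the gene's range. Aars was highest in tumour 2 at 10.38 with the next tumours at 10.13. Gars, the glycine enzyme, was highest in tumour 1 at 11.75 with the next at 11.36. Hars2, the mitochondrial histidine enzyme, reached 8.90 in tumour 12, and Iars2, the mitochondrial isoleucine enzyme, 9.60 in tumour 7. On the low side, Nars2, the mitochondrial asparagine enzyme, was at 7.01 and Yars at 7.53 in tumour 30. Lars, the leucine enzyme, was at 9.14 and 9.36 in tumours 30 and 18 and at 9.88 or more in the rest. Tars, the threonine enzyme, was at 9.09 and 9.11 in tumours 2 and 3, against 9.52 or more elsewhere. Farsb, the beta subunit of the phenylalanine enzyme, was at 9.74 in tumour 25, against 10.08 or more elsewhere. The untested Mars2 was highest in tumour 28, at 6.48, with the next at 6.10.

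The members of each set tended to vary together. The mean pairwise Pearson correlation over the 32 tumours was 0.37 for the 153 cytosolic pairs, of which 11 were negative, 0.38 for the 91 mitochondrial pairs, of which 8 were negative, and 0.29 for the 252 pairs of 1 cytosolic and 1 mitochondrial gene. It was 0.01 among all tested genes, and genes measured on the same arrays share array effects and cell content. Eprs, which charges glutamate and proline, and Rars, the arginine enzyme, had the highest value among cytosolic genes (0.83), followed by Nars and Lars (0.79) and Hars and Nars (0.76). Tars2 and Wars2, the mitochondrial threonine and tryptophan enzymes, also reached 0.83. Tars2 and Wars2 both lie on chromosome 3, and Hars, Nars and Lars on chromosome 18. Aars, Wars and Vars were the least tied to their set, with mean correlations of 0.14, 0.15 and 0.03 with the other cytosolic genes. Ears2, the mitochondrial glutamate enzyme, and Fars2, the mitochondrial phenylalanine enzyme, were the least tied among the mitochondrial genes, at 0.16 and 0.18.

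The 2 enzymes of 1 amino acid need not move together. Among 12 such pairs, Rars and Rars2 correlated at 0.81 (Spearman 0.73, and 0.71 without the 2 tumours with the most extreme Rars). Tars and Tars2 stood at 0.51, Lars and Lars2 and Yars and Yars2 at 0.43 each, and Vars and Vars2 at 0.42. Farsa and Fars2, Hars and Hars2, Iars and Iars2, and Sars and Sars2 lay between 0.21 and 0.22, and Nars and Nars2 at 0.14. Wars and Wars2 were at -0.04. Aars and Aars2 were at -0.28 with a Spearman value of -0.16, and at -0.05 without the 2 far tumours. The Yars value was 0.17 without its 2 far tumours, so it rests on them in large part.

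**Figure D1:**
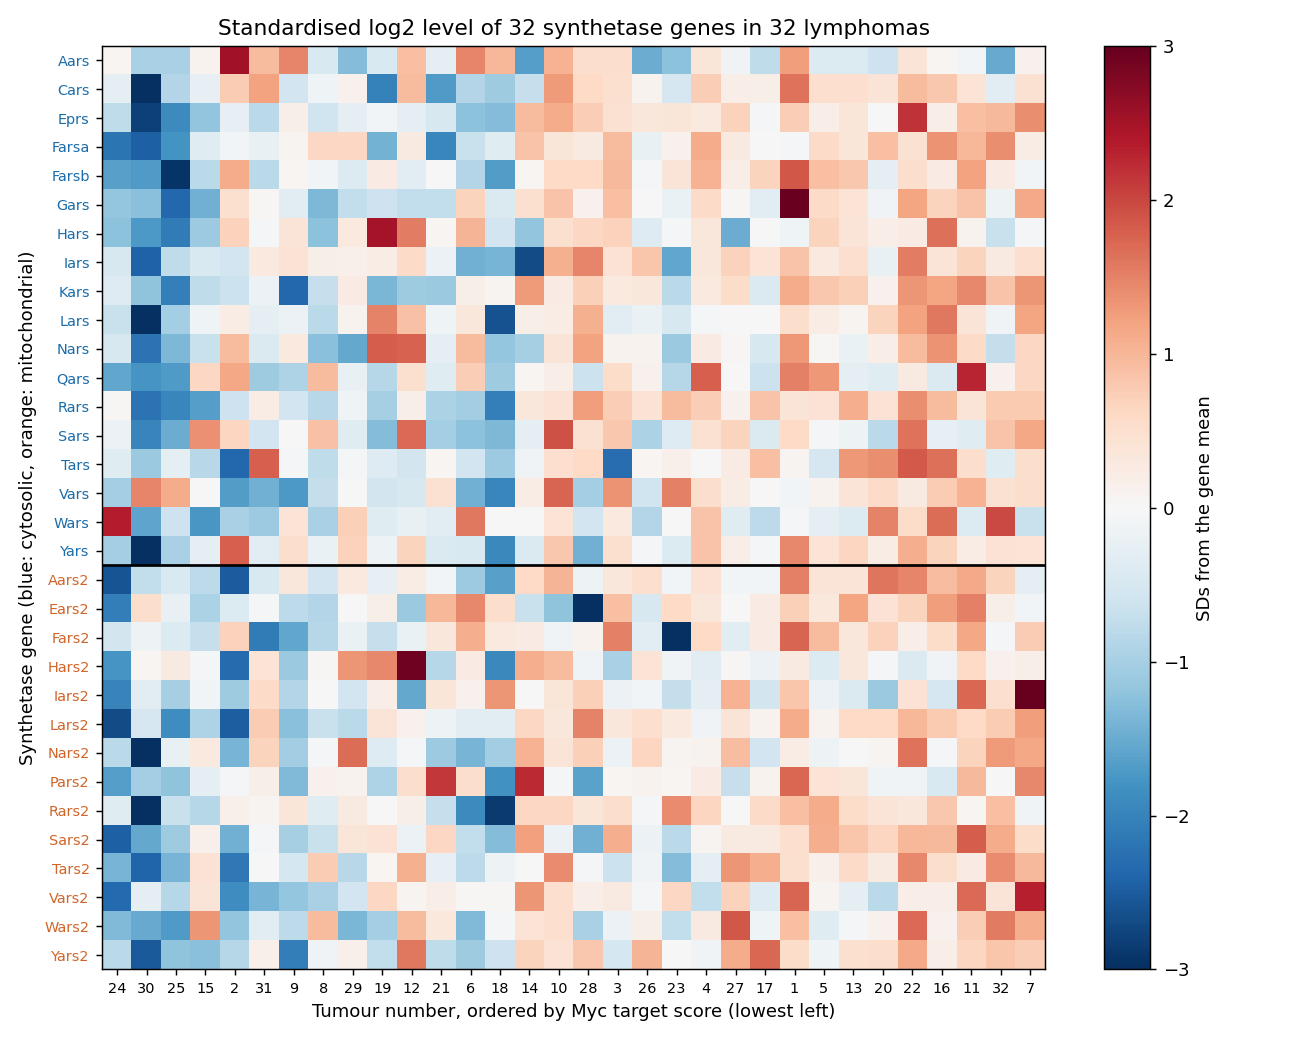
Standardised log2 level (SDs from the gene's mean, colour clipped at 3 SDs either way) of the 18 cytosolic genes (above the line) and 14 mitochondrial genes (below it) in the 32 tumours, ordered by Myc target score from left to right. The leftmost tumours 24, 30 and 25 are blue for most genes, and tumour 2 is red for Aars and Yars but blue for most mitochondrial genes.

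Averaged over each set as SDs from the gene means, the cytosolic genes were lowest in tumours 30 (-1.87), 25 (-1.33) and 18 (-1.05) and highest in tumours 22 (1.0) and 1 (0.89). The mitochondrial genes were lowest in tumours 24 (-1.63), 2 (-1.20) and 30 (-1.17) and highest in tumours 11 (0.97), 7 (0.95) and 1 (0.94). Tumour 2 separated the sets most plainly, with a cytosolic mean of 0.17 beside the mitochondrial -1.20. In it Aars and Yars had their highest values, and Hars2 its lowest, 7.36. Tumours 2 and 24 also had the highest T cell scores, 2.52 and 3.17, and tumours 30 and 25 the highest stroma scores, 2.04 and 2.35. On the averaged score of other cells (T cell, myeloid and stroma), 10 of 14 mitochondrial and 2 of 18 cytosolic genes fell (limma), where 14.8% of all genes fell. The largest t belonged to Nars2, with a slope of -0.23 ± 0.04 per SD (SE, adjusted p = 0.000116). The cytosolic ones were Farsa and Eprs. No synthetase passed on the difference between 3′ and 5′ control probes, a sign of RNA quality (limma), where 0.321% of genes rose and 0.837% fell. At an unadjusted p under 0.05, 1 had a positive slope, beside 4.9% of all genes, and 6 a negative one, beside 8.02%.

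Genes outside the set that followed it most closely were read off by correlation over the 32 tumours, as a description. For the cytosolic mean they were Ttc27 and Imp4 (0.91 each), Gadd45gip1 (0.90), Mrm3 (0.89), and Ifrd2 and Cd3eap (0.87 each). For the mitochondrial mean they were Oip5 (0.91), Cad (0.90), Abcb8 (0.89), Tti2 (0.88), and Bola1 and Tefm (0.87 each). Imp4 is known in ribosomal RNA processing, Cd3eap is a subunit of RNA polymerase I, Cad starts pyrimidine synthesis, and Tefm is an elongation factor of mitochondrial transcription. Cad is also 1 of the 23 genes of the Myc target score used next.

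The first comparison asked whether the synthetases follow the activity of Myc, read as the mean standardised level of 23 Myc target genes of growth, ribosome assembly and nucleotide synthesis, none of them a synthetase. A total of 13 of 18 cytosolic and 11 of 14 mitochondrial genes rose with this score and none fell (limma, adjusted p under 0.05), while 20.5% of all tested genes rose and 13.2% fell. The median slope was 0.14 log2 units per SD of the score in each set, beside 0.022 over all genes. Genes of both compartments thus rose with the score. Tumours 24 and 30 lay farthest from the median score, and without them 6 cytosolic and 6 mitochondrial genes rose, beside 12.4% of all genes that rose and 6.92% that fell. With the score of other cells as a covariate, to which the Myc target score was related at -0.62 over the tumours, 7 cytosolic and 8 mitochondrial genes rose, beside 10.8% of all genes that rose and 5.19% that fell. Without the 11 tumours high in Bpifa2, 5 cytosolic and 9 mitochondrial genes rose, beside 13.8% of all genes. The part of other cells in these slopes was not tested further.

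Among the mitochondrial enzymes, Lars2, which charges leucine, was at 8.47 in tumour 24, at a median of 9.20 and at 9.49 in tumour 28. Tumours 24, 2 and 25, all low on the score, held its 3 lowest values. Its slope was 0.20 ± 0.03 (SE, n = 32 tumours, limma adjusted p = 4.24e-06). Lars2 also passed without any 1 tumour and under each of 14 alternative settings. Those settings included the mean of its probe sets, and the Myc level or a proliferation score as the axis. A second, dimmer probe set of Lars2 had a slope of 0.04 ± 0.02 (adjusted p = 0.197) and correlated with the first at 0.29. Sars2, the mitochondrial serine enzyme, ran from 7.18 in tumour 24 through 7.92 to 8.38 in tumour 11, with a slope of 0.20 ± 0.04 (adjusted p = 7.96e-05). Yars2 had the steepest slope of all members, 0.28 ± 0.05 (adjusted p = 0.000136). Aars2, Tars2, Vars2, Nars2, Wars2, Rars2, Iars2 and Pars2, the last being the mitochondrial proline enzyme, rose by 0.10 to 0.21 per SD. Ears2 (0.11 ± 0.05, adjusted p = 0.0678), Fars2 (0.08 ± 0.04) and Hars2 (0.06 ± 0.05) did not pass. A second, dimmer Ears2 probe set, correlated with the chosen one at 0.09, did pass (0.16 ± 0.05, limma adjusted p = 0.0171). The second probe sets of Fars2 (-0.05 ± 0.09) and Hars2 (0.05 ± 0.04) did not.

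Among the cytosolic enzymes, Eprs ran from 10.51 in tumour 30 through 11.24 to 11.73 in tumour 22. Its slope was 0.19 ± 0.03 (adjusted p = 1.41e-05). Both subunits of the phenylalanine enzyme rose: Farsa rose by 0.17 ± 0.03 (adjusted p = 3.88e-05) and Farsb by 0.19 ± 0.04 (adjusted p = 0.000182). Of the multisynthetase complex, 6 of 6 tested enzymes rose (Eprs, Iars, Kars, Lars, Qars and Rars), with slopes from 0.07 for Qars to 0.19 for Eprs, and so did the scaffold genes Aimp2 (0.26 ± 0.04), Eef1e1 (0.21 ± 0.04) and Aimp1 (0.09 ± 0.03). Without tumours 24 and 30, or with the score of other cells as a covariate, 3 of the 6 enzymes rose. Gars, Yars, Cars (the cysteine enzyme), Tars and Hars also rose, by 0.10 to 0.17. Nars just missed the threshold (0.09 ± 0.03, adjusted p = 0.0526), and its second probe set passed (0.15 ± 0.05, adjusted p = 0.0194). Sars (0.09), Vars (0.04) and Wars (0.04) did not pass, and Aars had a slope of -0.02 ± 0.04 (adjusted p = 0.759).

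Synthetases fall into class I and class II by the fold of the catalytic domain, and the classes were not tested against each other. Of 15 tested class I enzymes 12 rose, with a median slope of 0.14, and of 16 class II enzymes 11 rose, with a median of 0.13. Among all tested genes 20.5% rose and 13.2% fell with the Myc target score. Without tumours 24 and 30, 4 class I and 7 class II enzymes rose, beside 12.4% of all genes. With the score of other cells as a covariate 6 and 8 rose, beside 10.8% of all genes. Other genes of transfer RNA charging and handling rose in 7 of 10 cases, led by Aarsd1, which edits mischarged alanine transfer RNA (0.20 ± 0.03, adjusted p = 2.08e-06), and by Gatc and Gatb, subunits of the mitochondrial glutamine amidotransferase (0.19 ± 0.03 and 0.28 ± 0.05). Mitochondrial translation factors rose in 9 of 11 cases, led by the elongation factors Gfm1 (0.27 ± 0.04) and Tsfm (0.23 ± 0.04) and by the transfer RNA modifier Gtpbp3 (0.17 ± 0.03). Without tumours 24 and 30, 4 of 10 other charging genes and 7 of 11 translation factors rose. With the score of other cells as a covariate 3 and 6 rose. Of 5 cytosolic elongation genes Eef1d (0.12 ± 0.04) and Eef1e1 rose, while Eef1a1 had a slope of 0.00 ± 0.01. Eef1e1 stands on both lists and is also counted among the scaffolds. The Mars1 probe set had a slope of 0.22 ± 0.05 (adjusted p = 0.00145).

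**Figure D2:**
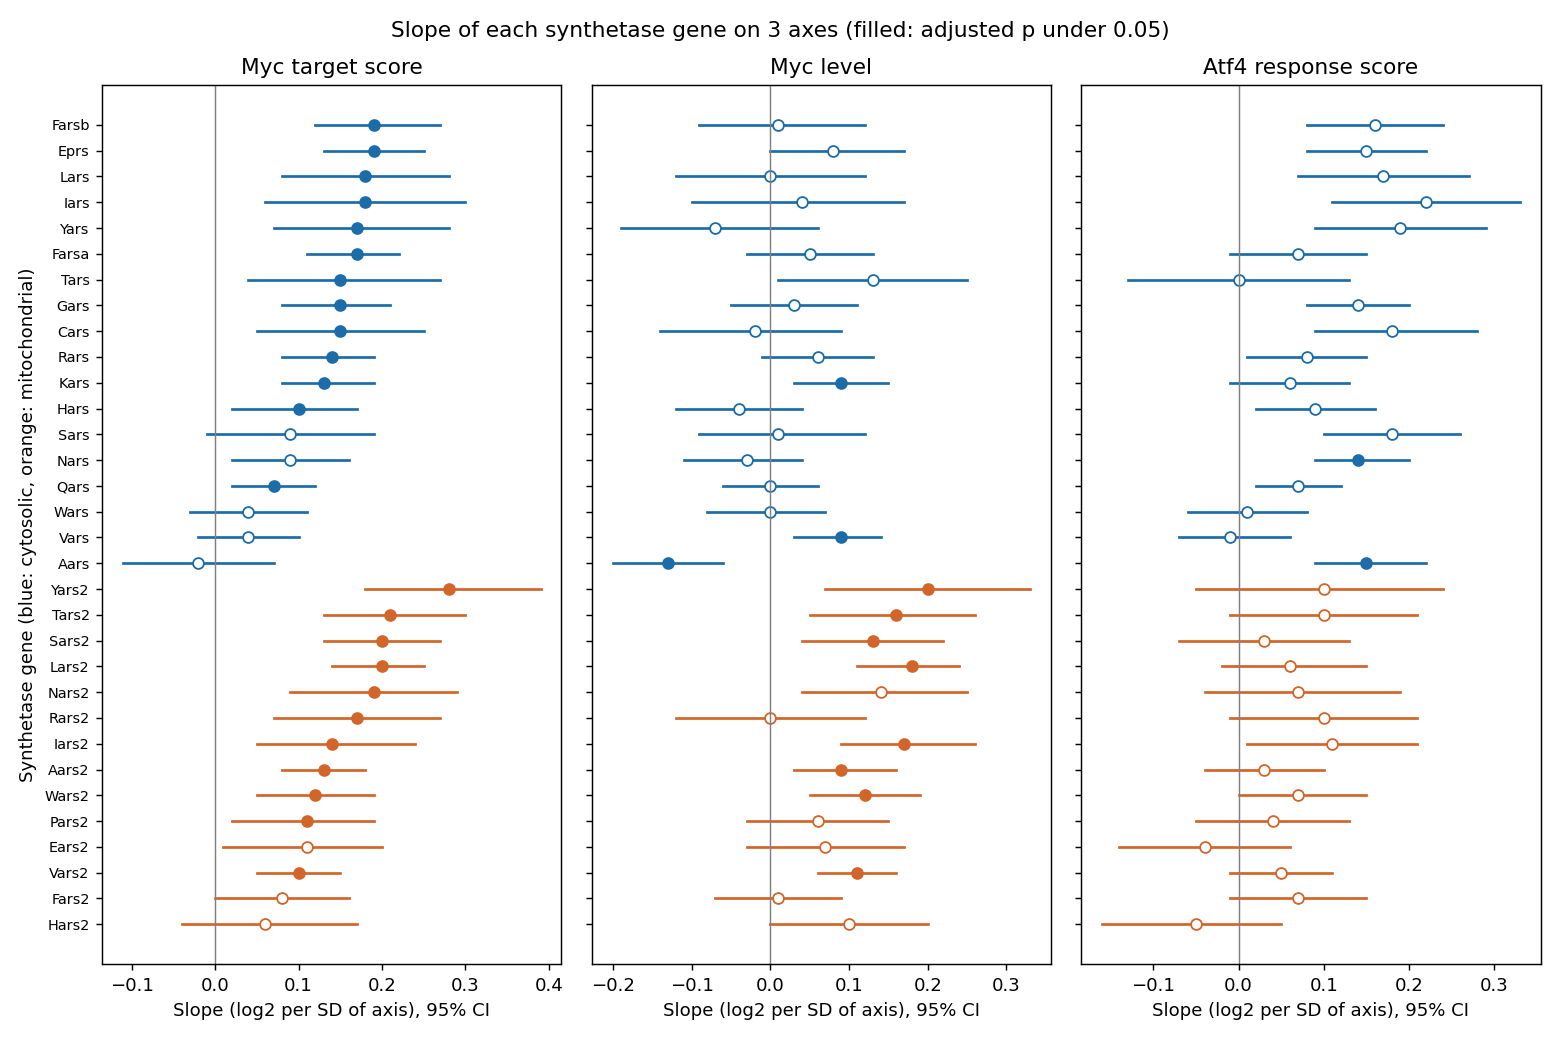
Slope of each tested synthetase gene, in log2 units per SD of the axis with its 95% confidence interval from limma, on the Myc target score (left), the level of Myc itself (middle) and the Atf4 response score (right), over 32 tumours. Filled points passed an adjusted p under 0.05: 13 of 18 cytosolic (blue) and 11 of 14 mitochondrial (orange) genes rose on the left, mainly mitochondrial genes passed in the middle, and Nars and Aars alone passed on the right.

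The level of Myc RNA itself was then taken in place of its targets, and mainly mitochondrial genes passed. This axis was taken up as a comparison of its own after its values had been seen. Myc ran from 9.81 in tumour 2 through 11.34 to 12.30 in tumour 7 (SD 0.50). With it 8 of 14 mitochondrial genes rose and none fell, while 2 of 18 cytosolic genes rose and 1 fell (limma), beside 10.4% of all genes that rose and 9.67% that fell. The mitochondrial genes that rose were Lars2 (0.18 ± 0.03 per SD, adjusted p = 0.000365), Vars2 (0.11 ± 0.02, adjusted p = 0.00249), Iars2 (0.17 ± 0.04), Wars2 (0.12 ± 0.03), Tars2 (0.16 ± 0.05), Aars2 (0.09 ± 0.03), Yars2 (0.20 ± 0.06) and Sars2 (0.13 ± 0.04). The cytosolic genes that rose were Vars (0.09 ± 0.03) and Kars (0.09 ± 0.03), and Aars fell by 0.13 per SD (SE 0.04, adjusted p = 0.0126). The median slope was 0.11 for mitochondrial and 0.01 for cytosolic genes.

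The number of members called on the Myc level rests on few tumours. Without tumours 2 and 7, the 2 farthest from the median, Lars2 alone rose, beside 2.7% of all genes that rose and 2.93% that fell. Without tumour 2 alone 5 members passed, all rising, where 5.45% of all genes rose. Without tumour 24 alone 4 rose and 1 fell, beside 6.24% of all genes that rose and 6.81% that fell. Without tumour 9 alone 6 rose and 1 fell, beside 7.61% and 8.4%. Myc level correlated with the score of other cells at -0.53 over the 32 tumours. With that score as a covariate Lars2 and Vars rose and Aars fell, beside 2.22% of all genes that rose and 1.95% that fell. Without the 11 tumours high in Bpifa2, 9 mitochondrial and 3 cytosolic genes rose and Aars fell, beside 11.7% of all genes that rose and 11.4% that fell. Gatc (0.18 ± 0.03), Pstk (0.17 ± 0.04), a kinase of selenocysteine synthesis, and Mtfmt (0.13 ± 0.04), which formylates the mitochondrial initiator, led 6 of 10 other charging genes that rose with the Myc level. Of the mitochondrial translation factors 3 of 11 rose, namely Trmu (0.21 ± 0.03), Gfm1 (0.19 ± 0.05) and Mtif2 (0.12 ± 0.04), and of the scaffolds Aimp1 rose (0.10 ± 0.03). None of the 5 cytosolic elongation genes passed. Without tumours 2 and 7, 1 of 10 other charging genes, 1 of 11 translation factors and 1 of 3 scaffolds rose. With the score of other cells as a covariate these counts were 2, 1 and 0. Without the tumours high in Bpifa2 they were 8, 5 and 2.

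The difference between the enzymes of 1 amino acid was then tested within each tumour, as the log2 level of the cytosolic gene minus that of the mitochondrial gene. On the Myc level 4 of 12 pairs passed, all 4 with the more positive slope on the mitochondrial side, and 10 of 12 differences were negative. Among all genes 10.4% rose and 9.67% fell with the Myc level. Aars minus Aars2 had a slope of -0.22 ± 0.05 (95% interval -0.32 to -0.13, limma adjusted p = 0.00124), from -0.13 for Aars and 0.09 for Aars2. Yars minus Yars2 had a slope of -0.26 ± 0.05 (-0.37 to -0.15, adjusted p = 0.00131), from -0.07 and 0.20. Lars minus Lars2 stood at -0.18 ± 0.05 (adjusted p = 0.00755) and Nars minus Nars2 at -0.18 ± 0.06 (adjusted p = 0.0247). The alanine and tyrosine pairs passed under all 11 alternative settings and without any 1 tumour. The leucine pair passed in 10 of the 11 settings, and the asparagine pair in 8. With probe sets averaged per gene the leucine pair stood at -0.08 (adjusted p = 0.33). Without tumour 2 neither of these pairs passed (adjusted p = 0.066 and 0.121), and without tumour 32 the asparagine pair did not (adjusted p = 0.0555).

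Single tumours at the ends of the Myc range did not all follow these slopes. In tumour 2, with the lowest Myc level, Aars was at 10.38 and Yars at 9.28, the highest of each, whereas Aars2 was at 7.38 and Yars2 at 8.32. In tumour 9, with Myc at 10.39, Aars was at 10.13 and Yars2 at 7.82, but Aars2 was at 7.91, above its median of 7.86. Tumour 24, with Myc at 10.55, had a low Yars of 8.33 beside low Aars2 (7.36) and Yars2 (8.34). At the other end, tumour 7, with the highest Myc level, had Aars at 9.82 and Yars at 8.81, both just above their medians, Aars2 at 7.79, below its median, and Yars2 at 8.97. Tumour 32, with Myc at 12.20, had Aars at 9.43 and Yars2 at 9.01, while its Yars of 8.82 was above the median. Tumour 30, with Myc at 11.78, held the lowest values of both Yars (7.53) and Yars2 (7.64). For arginine, threonine, valine and phenylalanine the differences ranged from -0.03 to 0.06, and that of arginine had a 95% interval from -0.02 to 0.13.

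On the Myc target score only the alanine pair passed, 1 of 12, where 20.5% of all genes rose and 13.2% fell. Its slope was -0.15 ± 0.05 (95% interval -0.26 to -0.04, limma adjusted p = 0.0329). That call was lost without tumour 2, tumour 24 or tumour 32, as well as with the score of other cells as a covariate. On the 4 other planned scores 0 of 12 pairs passed each (limma). On the mitochondrial ribosomal protein score 20% of all genes rose and 10.9% fell. The shares were 0.0982% and 0.0268% on the Atf4 score and 0.152% and 0% on the interferon score. They were 1.44% and 0.927% on the precursor B cell score. Unadjusted p-values were under 0.05 for 4 pairs on the Atf4 score, 1 on the mitochondrial ribosomal protein score, 2 on the interferon score and 0 on the precursor B cell score.

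**Figure D3:**
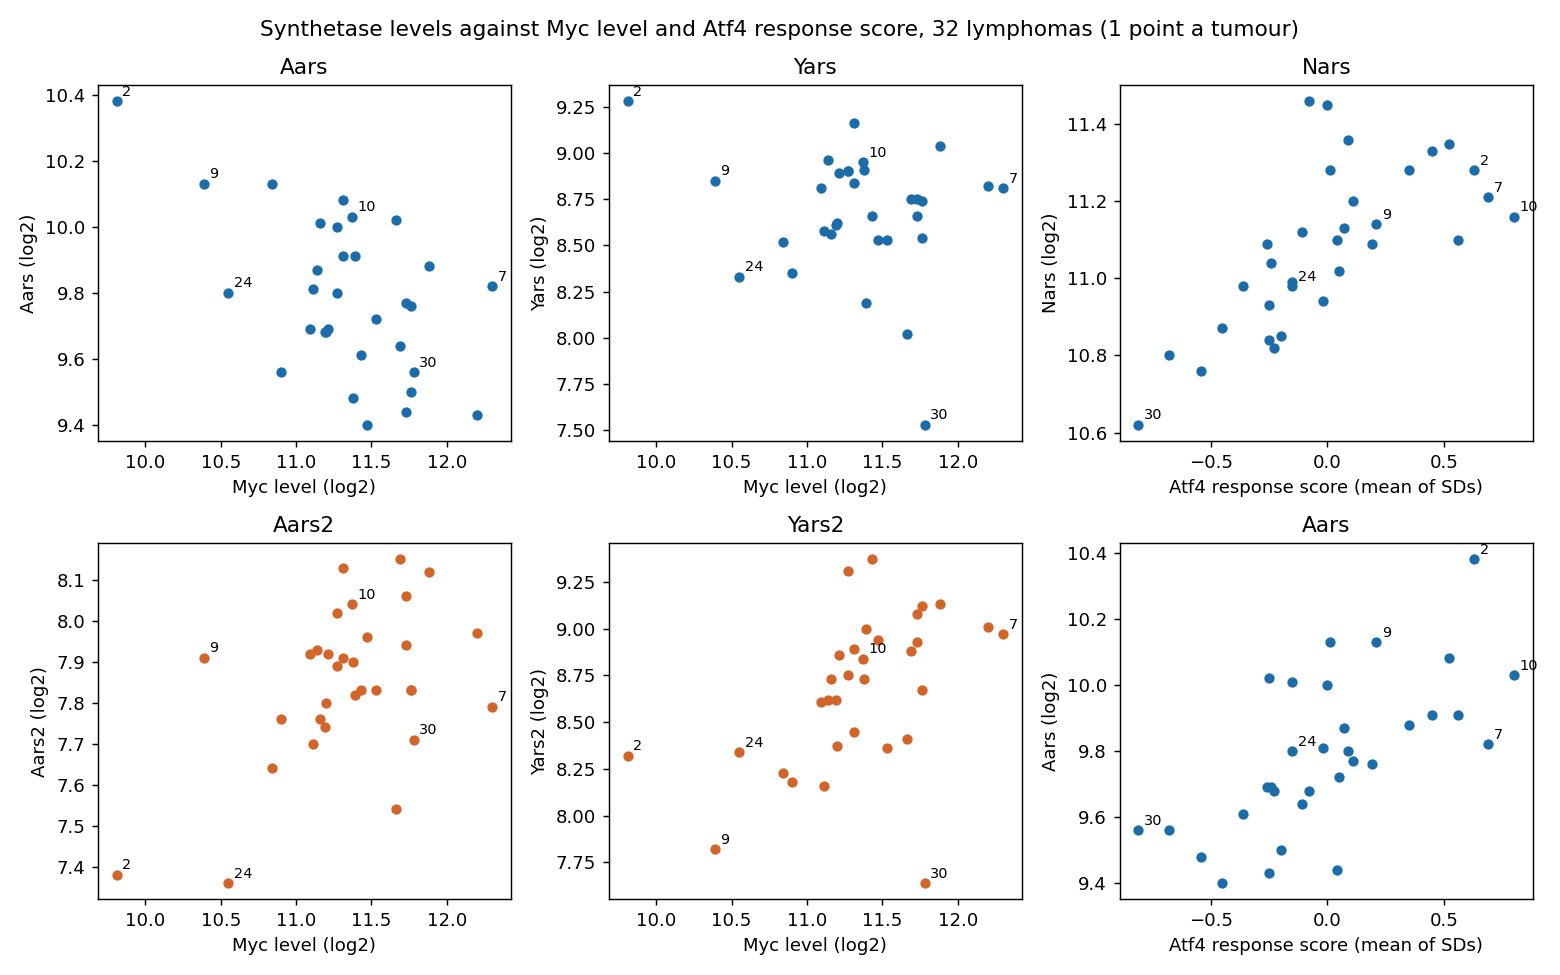
Log2 level of Aars, Yars, Aars2 and Yars2 against the log2 level of Myc (left and middle columns), and of Nars and Aars against the Atf4 response score (right column), 1 point for each of 32 tumours, with some tumours numbered. Tumour 2, lowest in Myc at 9.81, holds the highest Aars (10.38) and Yars (9.28), and Aars2 and Yars2 are low there.

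The second planned comparison asked whether the synthetases follow the response to amino acid shortage. The score was the mean of 21 tested Atf4 response genes, such as Asns and Psat1 of amino acid synthesis, and again held no synthetase. Its genes hardly varied together, with a mean pairwise correlation of 0.11, against 0.49 for the Myc target genes. Here 2 of 18 cytosolic and 0 of 14 mitochondrial genes rose (limma), where 0.0982% of all genes rose, 11 of 11207, and 0.0268% fell. Tars and Vars, both cytosolic, had slopes of 0.00 and -0.01.

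The genes that rose were Nars, the asparagine enzyme, and Aars, the alanine enzyme. Nars was at 10.62 in tumour 30, which was lowest on the score, at a median of 11.09 and at 11.46 in tumour 19. Its slope was 0.14 ± 0.03 (adjusted p = 0.0280), at rank 5 among the 11207 genes. Aars ran from 9.40 in tumour 14 through 9.78 to 10.38 in tumour 2, with a slope of 0.15 ± 0.03 (adjusted p = 0.0455) and rank 11. Their second probe sets had slopes of 0.17 ± 0.05 (adjusted p = 0.0788) and 0.12 ± 0.03 (adjusted p = 0.0901), the same direction short of the threshold. Sars and Gars followed at ranks 14 and 15 with slopes of 0.18 ± 0.04 and 0.14 ± 0.03, both with an adjusted p of 0.0512. With every probe set fitted on its own row, both of these passed (adjusted p = 0.0387 each). There the second Sars probe set also passed (0.21 ± 0.04, adjusted p = 0.0192). For Eprs, 2 other probe sets passed (0.15 ± 0.03 and 0.17 ± 0.04, adjusted p = 0.0387 each). The chosen Eprs probe set (adjusted p = 0.0582) and a dim one (-0.09 ± 0.08) did not.

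More cytosolic than mitochondrial genes leaned upward below the threshold, a count with no test of the difference. An unadjusted p under 0.05 with a positive slope was reached by 13 of 18 cytosolic and 1 of 14 mitochondrial genes, beside 9.65% of all genes. The median slope was 0.14 for the cytosolic set, 0.07 for the mitochondrial set and 0.01 over all genes. Of 11 tested synthetases known as Atf4 targets, 11 had a positive slope, 9 an unadjusted p under 0.05, and 2 passed. In the whole sets 17 of 18 cytosolic and 12 of 14 mitochondrial genes had a positive slope, and no share over all genes was taken. The slopes of Tars (0.00) and Wars (0.01) changed sign in 6 and 4 of 14 alternative settings. Iars (0.22 ± 0.06), Yars (0.19 ± 0.05), Cars (0.18 ± 0.05), Lars (0.17 ± 0.05), Farsb (0.16 ± 0.04) and Eprs (0.15 ± 0.04) were among those that did not pass. Iars2 was the mitochondrial gene that reached an unadjusted p under 0.05, with a slope of 0.11 ± 0.05.

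Of the 5 genes with a response element match in the promoter, Aars passed, Gars, Iars and Yars had slopes of 0.14, 0.22 and 0.19, and Tars had a slope of 0.00 ± 0.06. Nars, on chromosome 18, was not among the promoters read. None of the pairs passed on this score, and the largest differences were 0.15 ± 0.05 for Hars minus Hars2 (adjusted p = 0.199), 0.15 ± 0.06 for Sars minus Sars2 (adjusted p = 0.217) and 0.13 ± 0.06 for Aars minus Aars2 (adjusted p = 0.289). None of 3 scaffolds, 10 other charging genes, 5 elongation genes and 11 mitochondrial translation factors passed on this score (limma).

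The count of 2 was unstable. It was 0 without tumour 1, 22, 25, 29 or 30 alone, where 0.0178% to 0.0714% of all genes rose. It was also 0 without the 11 tumours high in Bpifa2 (0%) and without tumours 10 and 30, the farthest from the median (0.00892%). It was 1 without 1 of 11 other tumours, 3, 4, 7, 9, 10, 11, 16, 17, 20, 21 or 27. In those fits 0.0357% to 0.134% of all genes rose. It was 4 or 5 without 14, 15, 19, 24, 28 or 32, where 0.134% to 0.375% rose. Testing only genes above the 75th percentile of mean level (7.67) gave 11 cytosolic and 5 mitochondrial genes, where 11.4% of all genes rose. With the level of Asns alone in place of the score no synthetase passed, where 0.0445% of all genes rose.

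The third comparison set the synthetases beside the protein side of mitochondrial translation, the mean of 76 mitochondrial ribosomal protein genes. A total of 12 of 18 cytosolic and 10 of 14 mitochondrial genes rose and none fell (limma), beside 20% of all genes that rose and 10.9% that fell. This score correlated with the Myc target score at 0.88 over the 32 tumours. The median slope was 0.12 for the mitochondrial and 0.16 for the cytosolic set, beside 0.018 over all genes.

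Rars had the smallest p of the set, with levels from 10.29 in tumour 30 through 10.79 to 11 in tumour 22 and a slope of 0.16 ± 0.02 (adjusted p = 4.49e-06). Yars2 (0.32 ± 0.05, adjusted p = 9.07e-06), Kars, the lysine enzyme (0.15 ± 0.02), Gars (0.16 ± 0.03), Eprs (0.18 ± 0.03) and Cars (0.23 ± 0.04) followed. Nars (0.09 ± 0.03, adjusted p = 0.0559) and Sars (0.12 ± 0.05, adjusted p = 0.0588) came closest among those that did not pass, and Aars had a slope of 0.00 ± 0.04. Beside them 10 of 11 mitochondrial translation factors rose, led by Tufm (0.28 ± 0.05), Tsfm (0.22 ± 0.04) and Mrrf (0.27 ± 0.05), as did 3 of 3 scaffolds and 6 of 10 other charging genes, led by Aarsd1, Gatb and Gatc. With the Myc target score as a covariate 2 synthetases passed, both cytosolic, where 2.82% of all genes rose. Without the 11 tumours high in Bpifa2, 12 passed, where 7.35% of all genes rose. With every probe set fitted on its own row (limma), second probe sets of 3 uncalled genes passed. They were those of Nars (0.21, adjusted p = 0.00055), Hars (0.14, adjusted p = 0.00184) and Ears2 (0.17, adjusted p = 0.01). The dimmest Wars probe set also passed (0.15, adjusted p = 0.00546). The second probe sets of Sars (0.12, adjusted p = 0.0623) and Cars (0.04, adjusted p = 0.277) did not.

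Interferon is known to raise Wars, the tryptophan enzyme, and this was the fourth comparison. The score of 19 interferon-induced genes set tumours 2, 10 and 24 apart, so the other 29 tumours were used. No synthetase passed (limma), beside 0.152% of all genes that rose and 0% that fell, and none reached an unadjusted p under 0.05, beside 5.26% of all genes with a positive slope and 3.47% with a negative one. Wars had a slope of 0.01 ± 0.04 (95% interval -0.07 to 0.08). In the 3 tumours set apart Wars was at 8.89 in tumour 2, 9.16 in tumour 10 and 9.54 in tumour 24, against a median of 9.04 over all tumours. Thus 1 of the 3 held the highest Wars value and 1 was below the median. The smallest p-values belonged to Iars (0.12 ± 0.07, adjusted p = 0.636) and Vars2 (-0.05 ± 0.03, adjusted p = 0.659).

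The stage of the tumour was read from 13 precursor B cell genes, such as Rag1 and Vpreb1, in the fifth comparison. These genes varied together only weakly, with a mean pairwise correlation of 0.19. Tumour 24, highest in T cell score, was lowest on this score, which correlated with the score of other cells at 0.02. No synthetase passed (limma), where 1.44% of all genes rose and 0.927% fell. A negative slope at an unadjusted p under 0.05 was found for 5 of 18 cytosolic and 0 of 14 mitochondrial genes, beside 8.51% of all genes. Eprs (-0.12 ± 0.04) and Farsb (-0.13 ± 0.04) both had an adjusted p of 0.122, and Rars, Gars and Kars lay between -0.07 and -0.08. Without tumour 24 alone 2 cytosolic members fell, where 2.5% of all genes fell, and without tumour 30 alone 1 did, where 1.36% fell. With a mature B cell score in its place 1 cytosolic and 4 mitochondrial genes fell, where 6.12% of all genes fell.

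The last comparison read each gene against the chromosome on which it lies, as the median centred level of all tested genes of that chromosome, the gene itself included. Chromosomes 3, 12, 15 and 18 were split by a gap into tumours with a high and a low index, and the smaller side was left out of the test. A total of 10 of 18 cytosolic and 7 of 14 mitochondrial genes rose and none fell (limma), beside 20.2% of all genes that rose and 2.28% that fell. Kars had the smallest p (0.13 ± 0.03, adjusted p = 0.00185), followed by Yars2 (0.25 ± 0.06), Gars (0.14 ± 0.03), Pars2 (0.16 ± 0.04), Farsa (0.14 ± 0.03) and Sars2 (0.17 ± 0.04). Lars (adjusted p = 0.0974) and Hars (adjusted p = 0.0981) came closest among the rest. The count was 4 of 32 with the Myc target score as a covariate, where 11.4% of all genes rose, a share near that of the members. It was 10 with the score of other cells (15.4% of all genes) and 11 without the tumours high in Bpifa2 (15%). It was 11 without tumour 18 alone (19.9%) and 10 without tumour 24 alone (16.5%). Among the other charging genes Gatc (0.20 ± 0.03), Dtd1 (0.22 ± 0.05) and Aarsd1 (0.15 ± 0.04) led 6 of 10 that rose, and Tsfm (0.18 ± 0.05), Gfm2 (0.17 ± 0.05) and Tufm (0.19 ± 0.06) led 6 of 11 mitochondrial translation factors. Eef1e1 and Aimp2 rose among the scaffolds.

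For each of the 9 synthetase genes on the split chromosomes, the median was higher in the tumours above the gap, a description with no test. The 9 tumours high on chromosome 3 (7, 8, 10, 12, 15, 18, 22, 27 and 32) held Wars2 at 6.51 to 6.93, against 6.15 to 6.72 in the other 23. Tars2 was at 8.85 to 9.36 there, against 8.14 to 9.25, and Sars at 9.62 to 10.54, against 9.44 to 10.23. All 3 ranges overlapped, and for Sars tumour 18 was the low exception. In the 4 tumours high on chromosome 12 (6, 16, 20 and 32) Wars was at 9.37 to 9.47, above the median of 9.02 of the others, and tumour 24 outside them was higher still.

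Tars was at 10.23 to 10.54 in the 5 tumours high on chromosome 15 (13, 16, 17, 20 and 31), against 9.09 to 10.56 in the other 27, where tumour 22 held the highest value. In the 3 tumours high on chromosome 18 (6, 12 and 19) Hars was at 11 to 11.32, Nars at 11.28 to 11.46, Lars at 10.33 to 10.70 and Hars2 at 8.11 to 8.90. The medians of the other 29 tumours were 10.78, 11.09, 10.21 and 8.03. With all 32 tumours in the fit 8 of these 9 genes passed, Lars being the exception (0.13 ± 0.05, adjusted p = 0.0663), and within the larger side alone Hars2 was the 1 that passed (0.12 ± 0.04, adjusted p = 0.0340). The all-tumour fit, added after the values were seen, called 27.2% of all genes as rising and 2.21% as falling. DNA copy number was not measured.

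**Figure D4:**
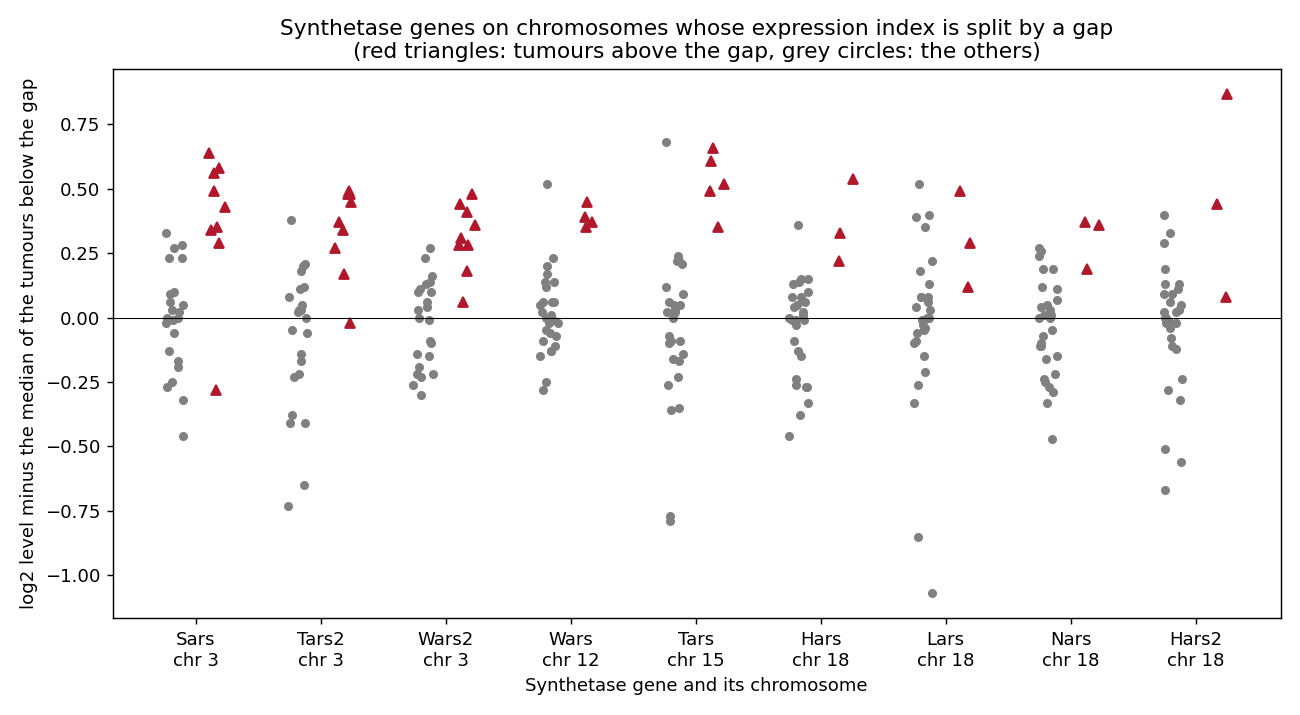
Log2 level of the 9 synthetase genes on chromosomes 3, 12, 15 and 18, minus the median of the tumours below the gap in the expression index of that chromosome. Red triangles are tumours above the gap (9, 4, 5 and 3 for the 4 chromosomes) and grey circles the others. The triangles lie mostly above 0, with tumour 18 below it for Sars and just below it for Tars2.

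Different probe sets of a gene did not always report the same thing. The 33 measured genes had 68 probe sets, 11 of them a single one. The second probe sets followed the chosen one closely for Aars (correlation 0.86), Nars (0.78) and Yars2 (0.90) over the 32 tumours, and Aars2 and Yars had no second probe set. Farsb had 1 probe set at -0.03 beside others at 0.94 and 0.97, and among probe sets bright enough to test, those of Cars (0.31), Lars2 (0.29), Vars2 (0.23), Ears2 (0.09), Fars2 (-0.08), Qars (0.27 and 0.28) and Farsa (0.18 and -0.14) followed the chosen one weakly or not at all. On the Myc target score the other probe sets of Farsa (-0.01 and 0.04), Qars (0.00 and -0.01), Cars (0.05) and Vars2 (0.21) did not pass either, so the calls of Lars2, Farsa, Qars, Cars and Vars2 rest on 1 probe set each. Eprs had 1 dim probe set at 0.03 beside others at 0.92 and 0.89.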

How the data were processed

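Gene expression was measured on 32 Affymetrix Mouse430_2 arrays, 1 for each tumour. The deposited values are log2 expression. Per the submitters' processing notes the authors ran RMA (affy), and versions of both were not found in the labels. RMA normalises arrays to a common distribution, so a shift shared by most genes would not be seen. The platform annotation gave 1 gene symbol to 34958 of the 45101 probe sets, several to 932 and none to 9211. For each gene the probe set with the highest mean was used, and genes with a mean under 5.78, the median probe set, were not tested.

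Each axis was scaled to an SD of 1 and fitted across all tested genes with lmFit and eBayes in limma 3.58.1 (R 4.3.3), with Benjamini-Hochberg adjustment over all genes and a threshold of 0.05. A slope is in log2 units per SD of the axis, and genes of a score were left out of its test. Differences between the enzymes of 1 amino acid were adjusted with the genes of the same fit. The fits were tested on simulated data. The members and lists were chosen with earlier results of these data known. By rule every member was named, with for each axis up to 6 called members of largest moderated t in each direction, the 2 of smallest p that did not pass, members with a gap of at least 25% of their range, the 6 other genes closest to each set by correlation, and the 3 called genes of largest t of each other list. Pairs, tumours and second probe sets described beyond these were chosen after their values were seen. Alternatives covered probe sets, filters, normalisation, covariates and left-out tumours. Promoters came from RefSeq (GRCm38.p6). The promoter sequence of Aars is not reported here. Python 3.11.15 with numpy 2.4.6, pandas 2.3.3 and matplotlib 3.10.9 was used for promoters and figures.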

Additional observations from a re-analysis of the deposited data

How the results depend on the processing

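Gene counts past the threshold depended on the tumours included and on covariates, and the cause was not tested. On the Myc target score the 24 became 14 without the tumours high in Bpifa2, where 13.8% of all genes rose. They became 15 with the T cell, myeloid and stroma score as a covariate (10.8%). With Myc level as the axis they became 11 (10.4% rose, 9.67% fell), and without the 2 farthest tumours 12 (12.4%). Without any 1 tumour the count was 16 to 26 (16.4% to 21.2%). On the Atf4 score the 2 became 5 with mean probe sets, where 0.284% of all genes rose, and 1 without a filter (0.022%). The count was 16 with a filter at the 75th percentile (11.4%) and 4 after a second quantile normalization (0.161%). It was 0 without the tumours high in Bpifa2 (0%), 5 with the 3′ minus 5′ covariate (0.223%) and 1 with ranks (0.0268%). It was 1 with the Myc target covariate (0.0357%), 0 with Asns (0.0445%) and 0 without the 2 farthest tumours (0.00892%). With every probe set it was 4, with no share of all genes taken. Without any 1 tumour it was 0 to 5 (0.0178% to 0.375%). On the mitochondrial ribosomal protein score the 22 became 12 without the tumours high in Bpifa2 (7.35% of all genes rose). The count was 2 with the Myc target covariate (2.82%) and 20 to 24 without any 1 tumour (16.9% to 20.4%). The interferon count of 0 became 1 with all 32 tumours, beside 7.28% of all genes that rose and 4.92% that fell. It was 0 to 0 without any 1 tumour (0.0624% to 0.214% rose). The precursor B cell count of 0 became 1 with the T cell, myeloid and stroma covariate (2.31% of all genes rose, 1.57% fell). It was 5 with the mature B cell score (5.59% rose, 6.12% fell). Without any 1 tumour it was 0 to 2 (0.722% to 2.38% rose, 0.464% to 2.5% fell). The own-chromosome 17 became 11 without the tumours high in Bpifa2, where 15% of all genes rose. The count was 10 with the T cell, myeloid and stroma covariate (15.4%) and 4 with the Myc target covariate (11.4%). Without the 2 farthest tumours it was 8, with no share of all genes taken. Without any 1 tumour it was 10 to 18 (16.5% to 22.3%).

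The 1 pair called on the planned scores became 3 with mean probe sets, 2 after quantile normalization and 3 without the tumours high in Bpifa2. The count was 0 with the T cell, myeloid and stroma covariate and 2 without the 2 farthest tumours. It was 0 on each of the Atf4, mitochondrial ribosomal protein, interferon and precursor B cell scores alone, and 0 to 1 without any 1 tumour. These totals ran over 5 scores whose shares of all genes called differed, so no single share stands beside them. On the Myc level the 11 members became 3 with the T cell, myeloid and stroma covariate (2.22% of all genes rose, 1.95% fell). They became 3 with ranks (5.26% rose, 5.21% fell) and 1 without the 2 farthest tumours (2.7% rose, 2.93% fell). Without any 1 tumour they were 5 to 13 (5.45% to 13.8% rose, 5.1% to 12% fell), and the 4 pairs 2 to 5. The median SD of the mitochondrial genes was 0.203 from the median absolute deviation. Slopes turned sign with Myc level in place of the Myc target score for Cars (-0.021), Hars (-0.037), Lars (-0.002) and Yars (-0.066), and with the Myc target covariate on the mitochondrial ribosomal protein score for Vars2 (-0.050). The fits without the 2 farthest tumours, with Asns, and all on the Myc level as an axis of its own were chosen after seeing the data. Dim probe sets limit Mars2, and arrays give no depth.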
